A study of Mus musculus with 10 samples.

Results

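Lysozyme M, encoded by Lyz2, is the locus into which Cre recombinase is inserted in LysM-Cre mice, and 10 genes of that stretch of mouse chromosome 10 were followed here out of the 55421 genes in the count table. They were Lyz2, its paralog Lyz1 and the 8 neighbors Yeats4, Cpsf6, Frs2, Cct2, Cpm, Mdm2, Slc35e3 and Nup107, chosen by position (GRCm38 coordinates are given with each) within about 0.5 Mb of Lyz2 in the GRCm38 annotation. All 10 were found in the table. RNA was sequenced from splenic myeloid-derived suppressor cells (MDSC) and tumor-associated macrophages (TAM) of mice bearing subcutaneous MC17-51 fibrosarcoma, taken at day 15. The groups were MDSC Shp2f/f (n = 2), MDSC Shp2f/fLysMcre (n = 2), TAM Shp2f/f (n = 3) and TAM Shp2f/fLysMcre (n = 3). Both genotypes carried floxed alleles of Ptpn11, the gene for the phosphatase SHP-2, and only the Shp2f/fLysMcre mice carried Cre. No group had Cre without floxed Ptpn11, so the insertion itself, the loss of SHP-2 and any difference in strain background around the insertion cannot be told apart in these samples. The paper describes these MDSC as the polymorphonuclear subset (GR1-high, Ly6G+ and Ly6C-), collected with magnetic beads. The TAM were sorted by flow cytometry from the same mice. The number of Cre alleles per mouse and any pooling of animals were not given in the sources used here.

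Lysozymes cleave the peptidoglycan of bacterial cell walls. In the mouse the ancestral gene is duplicated, and Lyz2 is the form made by macrophages and granulocytes, whereas Lyz1 is known as the form of intestinal Paneth cells. In LysM-Cre mice the Cre coding sequence is placed at the start codon of Lyz2, so that Lyz2 regulatory sequence drives Cre and the recombined allele no longer makes the enzyme. The neighbors work outside lysozyme biology. They encode a chromatin reader, an RNA 3' end processing factor, an adaptor of growth factor receptors, a chaperonin subunit, a peptidase, a regulator of p53, a membrane transporter family member and a nuclear pore subunit.

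Total counts ranged from 28844660 to 38222998 per library. Levels are given as CPM, the TMM-scaled read count relative to library size. Ptpn11, the floxed gene, was at 118.9 and 104.2 CPM in MDSC Shp2f/f and at 99.9 and 82.7 CPM in MDSC Shp2f/fLysMcre, and at 119.4 to 121.9 CPM in TAM Shp2f/f against 48.8 to 51.9 CPM in TAM Shp2f/fLysMcre. The genotypes did not overlap in either cell type, and Ptpn11 was called lower in TAM (log2 fold change -1.24 ± 0.0386 (SE), adjusted p = 2.96e-09) and not in MDSC (-0.29 ± 0.143, adjusted p = 0.361), with a difference between them of -0.93 ± 0.118 (adjusted p = 0.00045). Sex-linked transcripts also moved with genotype. Xist had 1 count in each MDSC Shp2f/f library and 4759 and 4875 in the MDSC Shp2f/fLysMcre libraries, and 185 to 665 counts in TAM Shp2f/f against 6465 to 10395 in TAM Shp2f/fLysMcre. The Y-linked Eif2s3y was lower by 1.39 and 1.57 on the log2 scale in MDSC and TAM of Shp2f/fLysMcre mice. It still had 1167 and 1399 counts in the MDSC Shp2f/fLysMcre libraries and 708 to 806 in those of TAM Shp2f/fLysMcre. Each Shp2f/fLysMcre library thus held both Xist and Y-linked transcripts, as did, with less Xist, each TAM Shp2f/f library. Whether animals of both sexes were pooled was not tested. Summed neutrophil markers (7 of 7 in the table, none at 0) were 7891 to 7999 CPM (of the unscaled total) in MDSC Shp2f/f and 19778 to 22060 in MDSC Shp2f/fLysMcre. In TAM the same markers summed to 4316 to 4537 CPM in Shp2f/f and 2215 to 2271 in Shp2f/fLysMcre, although their members moved in opposite directions there, with Mmp9 lower (-1.06) and Cxcr2 (1.03), Csf3r (0.72), S100a9 (0.54) and S100a8 (0.49) higher. Summed macrophage markers (7 genes, none at 0) were 2895 to 3047 in MDSC Shp2f/f, 2473 to 2499 in MDSC Shp2f/fLysMcre, 11436 to 11827 in TAM Shp2f/f and 16987 to 18380 in TAM Shp2f/fLysMcre. In MDSC, erythroid markers (5 genes, none at 0) summed to 180.0 to 203.8 CPM in Shp2f/f and 334.4 to 499.5 in Shp2f/fLysMcre. Monocyte markers there (4 genes, none at 0) summed to 5824 to 6171 and 3897 to 5198. None of the macrophage or monocyte markers was called in MDSC. Of the macrophage markers 2 lay higher and 5 lower in MDSC Shp2f/fLysMcre, and of the monocyte markers 1 lay higher and 3 lower. The 4 T cell markers, none at 0, were all called lower in TAM Shp2f/fLysMcre, at a sum of 2.55 to 3.0 CPM against 5.26 to 6.79. Sex makeup and genotype cannot be told apart here, the part of cell mixture in the results that follow was not tested, and in bulk RNA fewer cells of a type and less RNA per cell cannot be told apart.

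Lyz2 fell in both cell types of Shp2f/fLysMcre mice to 0.488% of its Shp2f/f mean in MDSC and to 0.309% in TAM. In MDSC it was at 9415 and 9935 CPM in Shp2f/f and at 45.6 and 48.9 CPM in Shp2f/fLysMcre. TAM libraries were at 3410, 3571 and 3393 CPM in Shp2f/f and at 12.1, 10.9 and 9.04 CPM in Shp2f/fLysMcre. Every Shp2f/f library was far above every Shp2f/fLysMcre library, and the spread within each group was small beside that gap. The log2 fold change was -7.68 ± 0.162 (SE) in MDSC (edgeR quasi-likelihood test, Benjamini-Hochberg adjusted p = 0.000148) and -8.33 ± 0.089 in TAM (adjusted p = 6.46e-13). Lyz2 had been the gene with the highest CPM of the whole table in MDSC Shp2f/f, with rank 1, and had rank 11 in TAM Shp2f/f. In the Shp2f/fLysMcre groups its ranks were 4549 and 8374.

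Lyz1 moved the opposite way. It was at 3.96 and 4.48 CPM in MDSC Shp2f/f and at 98.1 and 104.8 CPM in MDSC Shp2f/fLysMcre. TAM libraries were at 2.80, 1.83 and 3.04 CPM in Shp2f/f and at 78.6, 71.7 and 68.6 CPM in Shp2f/fLysMcre. The groups did not overlap, and Lyz1 rose 24.0-fold in MDSC (log2 fold change 4.58 ± 0.134, adjusted p = 0.000601) and 28.7-fold in TAM (4.84 ± 0.115, adjusted p = 1.72e-09). The call in MDSC was lost without either MDSC Shp2f/f replicate (adjusted p = 0.253 without replicate 1 and 0.235 without replicate 2), while the log2 fold change stayed between 4.49 and 4.68 there. With those libraries removed 1 gene of the whole table was called.

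The 2 genes lie 5.48 kb apart, and their sequences are alike enough to bear on how reads were assigned. Both were on the minus strand of GRCm38, Lyz2 at chr10:117277331-117282321 and Lyz1 at chr10:117287797-117292868, each with 4 exons. Their coding sequences were identical at 425 of 447 aligned positions (95.1%) and their 3' UTRs at 95.6% of aligned positions. Of the 1275 windows of 42 bases in the Lyz2 transcript, 272 (21.3%) were also present in the Lyz1 transcript, and 42 bases was the length of each read of a pair. The longest run common to both transcripts was 118 bases, within the coding sequence from base 276 to base 393 counted from the Lyz2 start codon, and it is shown because a read inside it fits both genes. It spans 3 exons of Lyz2 between chr10:117278175-117280666 (GRCm38, minus strand).
Lyz2 and Lyz1, common run: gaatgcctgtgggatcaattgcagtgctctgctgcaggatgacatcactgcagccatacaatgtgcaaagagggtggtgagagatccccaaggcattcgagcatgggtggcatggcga

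The upstream sequences are shown next because the genes differ so widely in level in Shp2f/f cells while their promoters resemble each other. Each window runs from 250 bases before to 50 bases after the annotated gene start (RefSeq, GRCm38.p6, minus strand, written 5′ to 3′), at chr10:117282223-117282522 for Lyz2 and chr10:117292819-117293118 for Lyz1. Capitals mark the bases that differ from the other gene in a global alignment.
Lyz2: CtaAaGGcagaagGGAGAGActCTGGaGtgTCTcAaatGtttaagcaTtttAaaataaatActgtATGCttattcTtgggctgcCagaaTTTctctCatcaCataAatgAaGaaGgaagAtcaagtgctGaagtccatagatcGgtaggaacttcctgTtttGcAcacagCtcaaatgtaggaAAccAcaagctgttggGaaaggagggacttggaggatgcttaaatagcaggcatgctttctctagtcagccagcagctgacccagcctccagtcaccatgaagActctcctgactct
Lyz1: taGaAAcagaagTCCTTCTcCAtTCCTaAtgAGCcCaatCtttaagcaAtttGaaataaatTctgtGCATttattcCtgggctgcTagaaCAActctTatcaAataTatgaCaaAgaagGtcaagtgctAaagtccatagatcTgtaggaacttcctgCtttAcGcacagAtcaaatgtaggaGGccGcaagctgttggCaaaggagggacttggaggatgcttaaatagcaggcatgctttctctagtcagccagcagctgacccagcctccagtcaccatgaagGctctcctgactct
The windows were identical at 249 of 302 aligned columns (82.5%), and the longest identical run, of 86 bases, ended with the first codons. The start codon opens the last 20 bases of each window, and that of Lyz2 is the site of the Cre insertion.

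Lyz1 and Lyz2 counts per library show how the pair shifted. In MDSC Shp2f/f, Lyz2 had 308715 and 327845 counts and Lyz1 had 130 and 148, so that Lyz1 held 0.0421% (95% Wilson interval 0.0355 to 0.05) and 0.0451% (0.0384 to 0.053) of the pair. In MDSC Shp2f/fLysMcre, Lyz2 had 1597 and 1881 counts and Lyz1 had 3435 and 4031, a Lyz1 share of 68.3% and 68.2%. In TAM Shp2f/f the Lyz1 share was 0.0821%, 0.0512% and 0.0896%, and in TAM Shp2f/fLysMcre it was 86.7%, 86.8% and 88.4%. These intervals and shares cover counting error only. The counts left on Lyz2 were 46.5% and 46.7% of the Lyz1 counts in the MDSC Shp2f/fLysMcre libraries, and 15.4%, 15.2% and 13.2% in the TAM Shp2f/fLysMcre libraries. That ratio was nearly constant within a cell type and lower in each TAM library than in either MDSC library. The rise of Lyz1 did not make up the loss, since its mean rose by 97.2 CPM in MDSC, where the mean of Lyz2 fell by 9627 CPM, and by 70.4 CPM in TAM, where Lyz2 fell by 3447 CPM. With the counts of both genes summed, the pair was 65.1-fold lower in MDSC (log2 fold change -6.02 ± 0.15, adjusted p = 0.000368) and 41.4-fold lower in TAM (-5.37 ± 0.0589, adjusted p = 8.33e-13).

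The direction in which the genotype effect on Lyz2 differed between the cell types depended on how the pair was counted. Taken alone, Lyz2 fell further in TAM than in MDSC, by a difference of -0.63 ± 0.146 on the log2 scale (interaction over all 10 libraries, adjusted p = 0.0119). Summed with Lyz1 it fell less in TAM, by a difference of 0.68 (adjusted p = 0.00193). The first call was lost without MDSC Shp2f/f replicate 1 (adjusted p = 0.0737) or replicate 2 (0.0515). The difference for Lyz1 was 0.29 ± 0.218 (95% interval -0.20 to 0.77, adjusted p = 0.378). The settings for reads with several matches were not given in the sources used here, so the small counts, Lyz1 in Shp2f/f and Lyz2 in Shp2f/fLysMcre, are uncertain.

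Other lysozyme-related genes and Paneth cell markers stayed near 0. Of the 8 further family members listed (Lyzl1, Lyzl4, Lyzl6, Spaca3, Spaca5, Lyg1, Lyg2 and Lalba), Lyzl4 had 15 to 17 counts per library in TAM Shp2f/f and 9 to 10 in TAM Shp2f/fLysMcre (log2 fold change -0.56 ± 0.318, adjusted p = 0.169), and each of the others had at most 2 counts in any library. The 7 genes listed as Paneth cell markers (Defa24, Defa30, Defa17, Mmp7, Itln1, Ang4 and Lgr5) summed to 0 to 5 counts per library. Of these, Defa24, Defa30, Defa17 and Ang4 had 0 counts in all 10. The libraries in which Lyz1 was high thus held no more than 4 counts of these 7 genes.

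**Figure D1:**
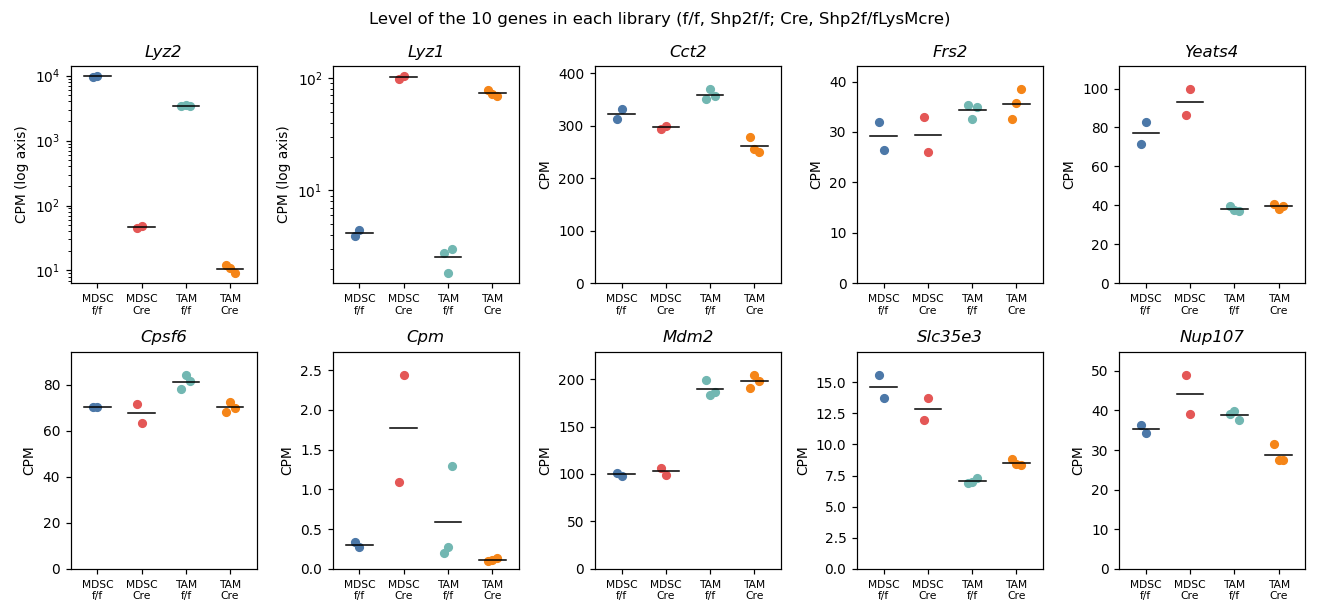
Level of the 10 genes in each library, in CPM scaled within each cell type, with 1 point per library and a line at the group mean (Lyz2 and Lyz1 on a log axis, the others on an axis from 0). Lyz2 drops and Lyz1 rises in both Shp2f/fLysMcre groups, while the 8 neighbors keep the order of magnitude they had in Shp2f/f, except Cpm at the bottom of the range.

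In MDSC no neighbor passed the test. Of the 10 genes tested, 2 were called, Lyz2 lower and Lyz1 higher, where 4.28% of the 14806 tested genes were called (3.76% higher and 0.52% lower in Shp2f/fLysMcre). None of the 8 neighbors was called by edgeR, 1 of them (Cpm) had an unadjusted p under 0.05 in edgeR, and 1 (Cpm again) was called by DESeq2. The median log2 fold change of the 8 was 0.03, against -0.01 over all tested genes. In TAM, 6 of the 9 tested genes were called, where 50.2% of the 14446 tested genes were called (23.9% higher and 26.3% lower in Shp2f/fLysMcre). Besides Lyz2 and Lyz1 these were Cct2, Nup107 and Cpsf6, which fell, and Slc35e3, which rose. Among the neighbors alone 4 of 7 were called, a share of 57.1% beside the 50.2% of all genes, and their changes were between -0.46 and 0.27 on the log2 scale. The tests differed in reach, as the fitted spread between replicates (edgeR's BCV) came to 0.189 for MDSC against 0.0595 for TAM. The difference between the genotype effects was called for 5 of the 10 genes (Lyz2, Cct2, Cpm, Slc35e3 and Nup107), where 24.9% of the 16581 tested genes were called. Cpm passed the filter on low counts through libraries in which it was high, so none of its calls here is given as support.

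**Figure D2:**
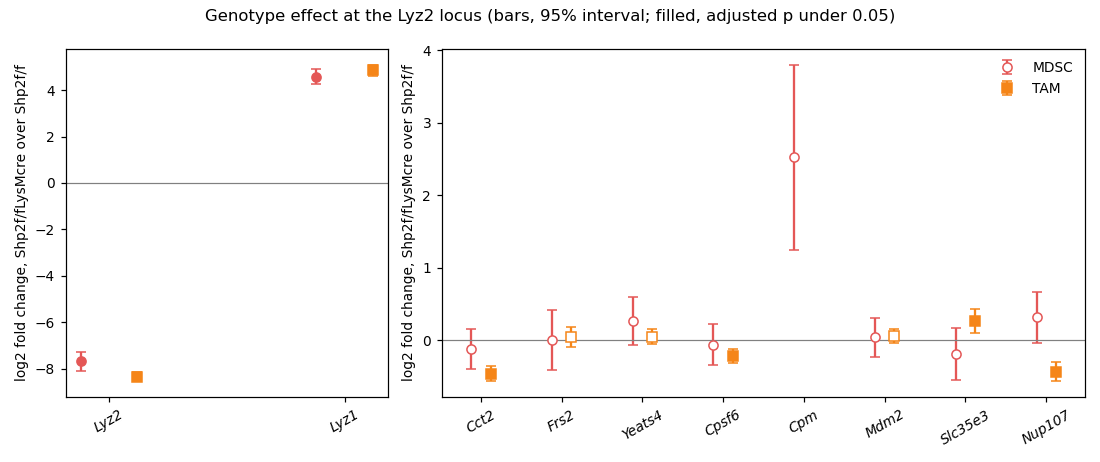
Log2 fold change of Shp2f/fLysMcre over Shp2f/f with its 95% interval for each gene in MDSC (circles) and TAM (squares), filled where the adjusted p was under 0.05. Lyz2 and Lyz1 are on the left with their own axis, and on the right the TAM values of the 7 neighbors tested there run from -0.46 to 0.27. Cpm has no TAM value, since it was under the filter on low counts, and its MDSC value of 2.53 is open.

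Cct2 (chr10:117051001-117063814, minus strand, 213.5 kb from Lyz2) encodes a subunit of the TRiC/CCT chaperonin, the ring that folds actin, tubulin and other proteins. TAM values were 351.1, 369.8 and 356.3 CPM in Shp2f/f and at 278.1, 255.7 and 250.9 CPM in Shp2f/fLysMcre, without overlap (log2 fold change -0.46 ± 0.0464, adjusted p = 1.11e-05). In MDSC it was at 312.5 and 331.8 CPM against 294.3 and 299.2 CPM, without overlap and without a call (-0.12 ± 0.111, 95% interval -0.40 to 0.16, adjusted p = 0.655). The other 7 subunits of the chaperonin, whose genes lie outside the window, all fell in TAM, from -0.41 ± 0.0494 for Cct8 to -0.72 ± 0.0476 for Cct6a, with a median of -0.46 against -0.01 for all tested genes. The change of Cct2 was within the range of its partners. None of the 7 was called in MDSC, where their median was -0.10. The difference between cell types for Cct2 was -0.31 ± 0.0924 (adjusted p = 0.0359), and this call was lost in 10 of the alternatives, including the fit without a filter on low counts (adjusted p = 0.174).

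Nup107 (chr10:117750621-117792705, minus strand, 468.3 kb from Lyz2) encodes a member of the Y complex, the scaffold of the nuclear pore. It fell in TAM from 39.0, 39.8 and 37.6 CPM to 31.5, 27.5 and 27.5 CPM, again without overlap (-0.43 ± 0.0582, adjusted p = 0.000104). In MDSC its values lay the other way, at 36.3 and 34.4 CPM in Shp2f/f and 49.0 and 39.2 CPM in Shp2f/fLysMcre, but the change was not called (0.32 ± 0.142, adjusted p = 0.312). Without MDSC Shp2f/fLysMcre replicate 2 it was called there (0.47, adjusted p = 0.00372). The difference between the cell types was -0.72 ± 0.136 (adjusted p = 0.00436). Of 9 further members of the Y complex, 8 fell in TAM, with a median over the 9 of -0.29, led by Nup37 (-0.77 ± 0.0708, adjusted p = 5.39e-06), and Sec13 (-0.08) was not called. None of the 9 was called in MDSC, with a median of 0.04.

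Cpsf6 (chr10:117344673-117380015, minus strand, 62.4 kb from Lyz2), the nearest of the 8 on the side of Lyz1, encodes the larger subunit of cleavage factor Im, which helps choose the site of mRNA 3' end formation. It was at 78.1, 84.4 and 81.6 CPM in TAM Shp2f/f and at 68.4, 72.7 and 70.0 CPM in TAM Shp2f/fLysMcre (-0.21 ± 0.0427, adjusted p = 0.00176). In a single fit of all 10 libraries this call was lost (-0.17, adjusted p = 0.0508). In MDSC it was at 70.6 and 70.4 CPM against 71.9 and 63.5 CPM, with overlap (-0.06 ± 0.112, 95% interval -0.34 to 0.22, adjusted p = 0.849). Of 15 further cleavage and polyadenylation genes 8 fell in TAM and 1 rose, with a median of -0.11. Cstf2, a subunit of the cleavage stimulation factor, fell the furthest (-0.55 ± 0.0448), and Cpsf7, the alternative partner in cleavage factor Im, was the one that rose (0.18 ± 0.0585, adjusted p = 0.0221). The Cpsf7 call was lost without TAM Shp2f/f replicate 2 or 3 (adjusted p = 0.0932 and 0.0698) and without TAM Shp2f/fLysMcre replicate 2 or 3 (0.102 and 0.0545). Scaled by total counts, 11 of the 15 fell and none rose. That scaling moved the median of all genes in TAM to -0.11, so each TAM change reads lower by about that amount under it. None of the 15 was called in MDSC.

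Yeats4 (chr10:117215221-117224507, minus strand, 52.8 kb from Lyz2) lies on the other side and encodes GAS41, a reader of acetylated histones shared by the NuA4 and SRCAP complexes. It was at 71.5 and 82.7 CPM in MDSC Shp2f/f and at 86.2 and 99.7 CPM in MDSC Shp2f/fLysMcre, with no overlap and no call (0.27 ± 0.135, 95% interval -0.07 to 0.61, adjusted p = 0.364). In TAM it was at 39.9, 37.7 and 36.9 CPM against 40.9, 38.1 and 39.7 CPM, which overlapped (0.05 ± 0.0484, 95% interval -0.06 to 0.16, adjusted p = 0.407). Of its 19 complex partners 4 fell in TAM, among them the helicase genes Ruvbl1 (-0.37 ± 0.0646) and Ruvbl2, and 2 rose, Ing3 and Morf4l1 (0.14 ± 0.0441). The median of the 19 was 0.005, and the Morf4l1 call was lost under total counts and without TAM Shp2f/f replicate 1 (adjusted p = 0.0831). Under total counts the split was 7 lower and none higher, and in MDSC none of the 19 was called.

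Frs2 (chr10:117069427-117148534, minus strand, 128.8 kb from Lyz2) encodes an adaptor that docks on fibroblast growth factor receptors and recruits GRB2 and SHP-2, the product of the floxed gene. It was at 32.0 and 26.5 CPM in MDSC Shp2f/f and at 32.9 and 26.0 CPM in MDSC Shp2f/fLysMcre (0.01 ± 0.167, 95% interval -0.41 to 0.43, adjusted p = 0.984). In TAM it was at 35.3, 32.6 and 35.0 CPM against 32.5, 35.7 and 38.5 CPM (0.05 ± 0.0627, 95% interval -0.09 to 0.19, adjusted p = 0.541). The groups overlapped in both cell types, and the sign of these near-zero values turned under other settings. Of 9 signaling partners tested in TAM 5 rose and 2 fell. Gab1, an adaptor that also binds SHP-2, rose the most (0.47 ± 0.0383, adjusted p = 2.08e-06), and Ptpn11 itself and Fgfr1 (-0.37 ± 0.0519) were those that fell. None of the 9 was called in MDSC.

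Mdm2 (chr10:117688875-117710758, minus strand, 406.6 kb from Lyz2) encodes the ubiquitin ligase that marks p53 for degradation and is itself a p53 target. It was at 101.5 and 98 CPM in MDSC Shp2f/f and 106.4 and 99.2 CPM in MDSC Shp2f/fLysMcre (0.04 ± 0.108, 95% interval -0.23 to 0.31, adjusted p = 0.886). In TAM it was at 198.6, 183.6 and 186.4 CPM against 190.4, 204.5 and 198.1 CPM (0.06 ± 0.0443, 95% interval -0.04 to 0.16, adjusted p = 0.283). Mdm2 overlapped between genotypes in both. Among 21 p53 pathway genes tested in TAM 9 rose and 4 fell, with a median of -0.02. Ddit4, a stress-induced inhibitor of mTORC1, rose by 1.55 ± 0.0803 on the log2 scale, Cdkn1a, the cell cycle inhibitor p21, rose by 0.45 ± 0.0359, and Eda2r, of the TNF receptor family, fell by 1.02 with an SE of 0.28. The Eda2r call was lost without TAM Shp2f/fLysMcre replicate 2 (adjusted p = 0.052). Trp53 itself was lower (-0.48 ± 0.0472, adjusted p = 8.87e-06). Total count scaling gave 8 higher and 7 lower. In MDSC 1 of 20 was called, the BH3-only gene Pmaip1 (-0.63 ± 0.104, adjusted p = 0.0375), which rose in TAM (0.33 ± 0.0419). Its MDSC call was lost without MDSC Shp2f/f replicate 1 (adjusted p = 0.714) or replicate 2 (0.795).

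Slc35e3 (chr10:117733679-117746365, minus strand, 451.4 kb from Lyz2) encodes a little-studied member of the SLC35 family, whose known members carry nucleotide sugars. In TAM it rose from 6.92, 6.98 and 7.32 CPM to 8.86, 8.43 and 8.33 CPM (0.27 ± 0.0733, adjusted p = 0.00943). Scaled by total counts the change was 0.17 and was not called (adjusted p = 0.0612). In MDSC it was at 15.6 and 13.7 CPM against 12 and 13.7 CPM (-0.18 ± 0.145, adjusted p = 0.588). The difference of 0.48 ± 0.14 between the effects (adjusted p = 0.0321) was lost under 9 alternatives, with an adjusted p of 0.172 under total counts. Of its 3 relatives, Slc35e4 fell in TAM (-0.53 ± 0.0496) and Slc35e1 (0.03) and Slc35e2 (0.01) were not called. The change of Slc35e3 was thus above the range of its relatives.

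Cpm (chr10:117629500-117687352, plus strand, 347.2 kb from Lyz2) encodes carboxypeptidase M, a membrane enzyme that trims basic residues from the ends of peptides and appears as monocytes become macrophages. It was the lowest of the 10 genes. Its counts were 11 and 9 in MDSC Shp2f/f and 38 and 94 in MDSC Shp2f/fLysMcre, and it passed the filter on low counts in MDSC through the latter group (2.53 ± 0.51, adjusted p = 0.0628). DESeq2 called it (adjusted p = 0.011). The log2 fold change was 2.97 without MDSC Shp2f/fLysMcre replicate 1 and 1.82 without replicate 2. As the filter was passed through the group in which Cpm was high, these values are not given as support. Replicate 2 stood apart in fibroblast or tumor markers, whose sum (5 genes, none at 0) was 490.8 CPM there and 6.85 to 25.2 in the other MDSC libraries. In TAM the counts were 7, 11 and 48 in Shp2f/f and 3, 4 and 4 in Shp2f/fLysMcre, under the filter. Replicate 3 of TAM Shp2f/f, the library with 48, also had the highest sum of pancreatic markers (5 genes, up to 2 at 0), at 5669 CPM. The other TAM Shp2f/f libraries were at 731.9 and 1144 CPM and those of TAM Shp2f/fLysMcre at 17.9 to 74.8. By genotype in TAM, Ins1 (-6.45) and Ins2 (-6.66) of that list were called lower and Cela1 (0.60) higher, while Prss2 and Cpa1 were under the filter. The part of these transcripts in the Cpm counts was not tested. The difference between the effects was -4.83 ± 1.11 (adjusted p = 0.0113), and it was lost without MDSC Shp2f/f replicate 1 (0.0527) or replicate 2 (0.0634). Of the other regulatory carboxypeptidases of its family, Cpe (-1.43 ± 0.385, adjusted p = 0.00923) and Aebp1 (-0.22 ± 0.0813, adjusted p = 0.0433) fell among 4 tested in TAM, and none of 3 was called in MDSC. The Cpe call was lost in a single fit of all 10 libraries (-1.40, adjusted p = 0.163), and its value was -0.64, still called, without TAM Shp2f/f replicate 3.

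Across all the partner lists, 53 of 88 tested genes were called in TAM, 17 higher and 36 lower, where 50.2% of all tested genes were called. Without the floxed gene Ptpn11 the count was 52 of 87. In MDSC 1 of 85 was called by edgeR, where 4.28% of all tested genes were called. There 10 had an unadjusted p under 0.05, and DESeq2 called 5. The same shares of all genes apply to the count of each list above. The partners lie elsewhere in the genome, and their share of calls in TAM can be read beside the 57.1% of the tested neighbors.

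**Figure D3:**
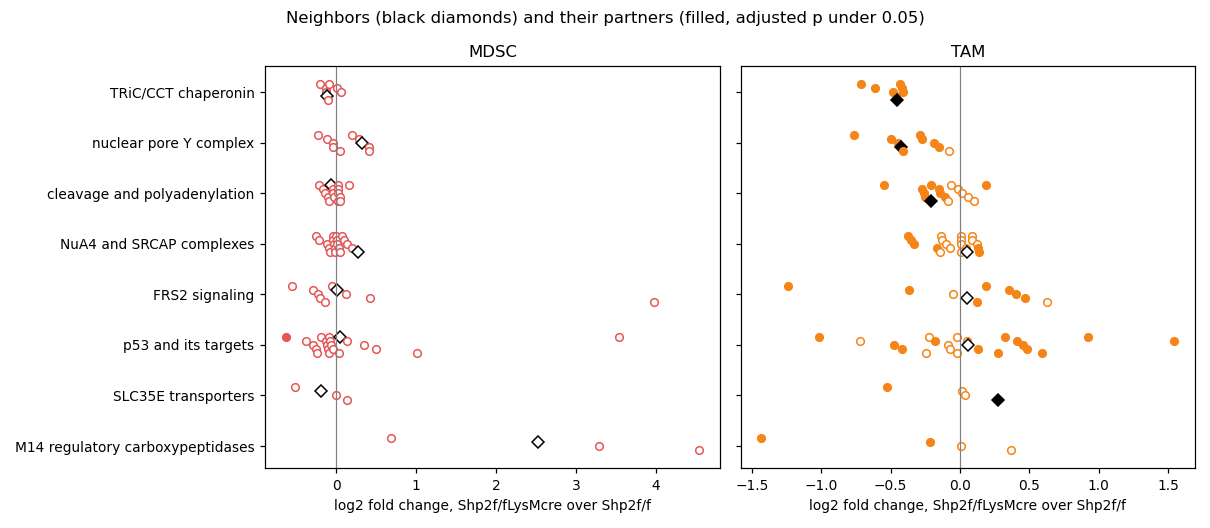
Log2 fold change of Shp2f/fLysMcre over Shp2f/f in MDSC (left) and TAM (right) for each neighbor (black diamonds) and the other genes of its complex, pathway or family (circles), filled where the adjusted p was under 0.05. In TAM, Cct2, Nup107 and Cpsf6 sit inside the range of their partners and Slc35e3 lies above its 3 relatives, while in MDSC nearly all symbols are open.

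The window holds further genes. Of 33 annotated genes within 0.5 Mb of Lyz2, 21 had at least 1 count, and 13 in MDSC and 12 in TAM passed the filter. The 3 tested genes other than the 10 were Rab3ip, 4933412E12Rik and the processed pseudogene Gm5781. Rab3ip, an exchange factor for RAB8, fell in TAM (-0.50 ± 0.0837, adjusted p = 0.000484) and was not called in MDSC (0.03 ± 0.133), with a difference of -0.50 ± 0.143 (adjusted p = 0.0311) that was lost under 9 alternatives. Neither 4933412E12Rik nor Gm5781 was called in either cell type. In all, 7 of 12 genes were called in TAM within 0.5 Mb (58.3%), 7 of 15 from 0.5 to 2 Mb (46.7%), 34 of 60 from 2 to 10 Mb (56.7%) and 312 of 608 further along the chromosome (51.3%). In MDSC the counts were 2 of 13, 2 of 16, 1 of 61 and 23 of 603. Among the 12 genes tested in TAM within 0.5 Mb, Lyz2 and Lyz1 were those that moved by 1 or more on the log2 scale. Cpm, under the filter there, was at -2.11 to -2.73 in the 6 alternatives that tested it, all with its highest TAM library. In MDSC the 13 tested genes held 3 with a value of 1 or more in size, Lyz2, Lyz1 and the uncalled Cpm (2.53).

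At the edge of the window Nup107 lay inside at 468.3 kb and Rap1b outside at 531.5 kb. Rap1b, a small GTPase of integrin signaling, rose in TAM (0.29 ± 0.0388, adjusted p = 8.71e-05) and was not called in MDSC (-0.29 ± 0.123, adjusted p = 0.294). One gene beyond the window, picked after its values were seen, was called higher in both cell types. Mdm1, which encodes a microtubule-binding protein of centrioles, lies 859.5 kb from Lyz2 on the side of Lyz1. It was at 42.8 and 44.1 CPM in MDSC Shp2f/f and 72.8 and 63.4 CPM in MDSC Shp2f/fLysMcre (0.65 ± 0.116, adjusted p = 0.0461). In TAM it was at 11.9, 11.4 and 11 CPM against 19.2, 20.9 and 19.5 CPM (0.80 ± 0.0593, adjusted p = 1.06e-06). The MDSC call was lost without a filter on low counts (adjusted p = 0.108) and without MDSC Shp2f/f replicate 1 (0.792) or replicate 2 (0.835). Of 16 genes within 1 Mb tested in both cell types, Lyz2, Lyz1 and Mdm1 were called in the same direction in both, and among all 13147 genes tested in both 97 were.

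**Figure D4:**
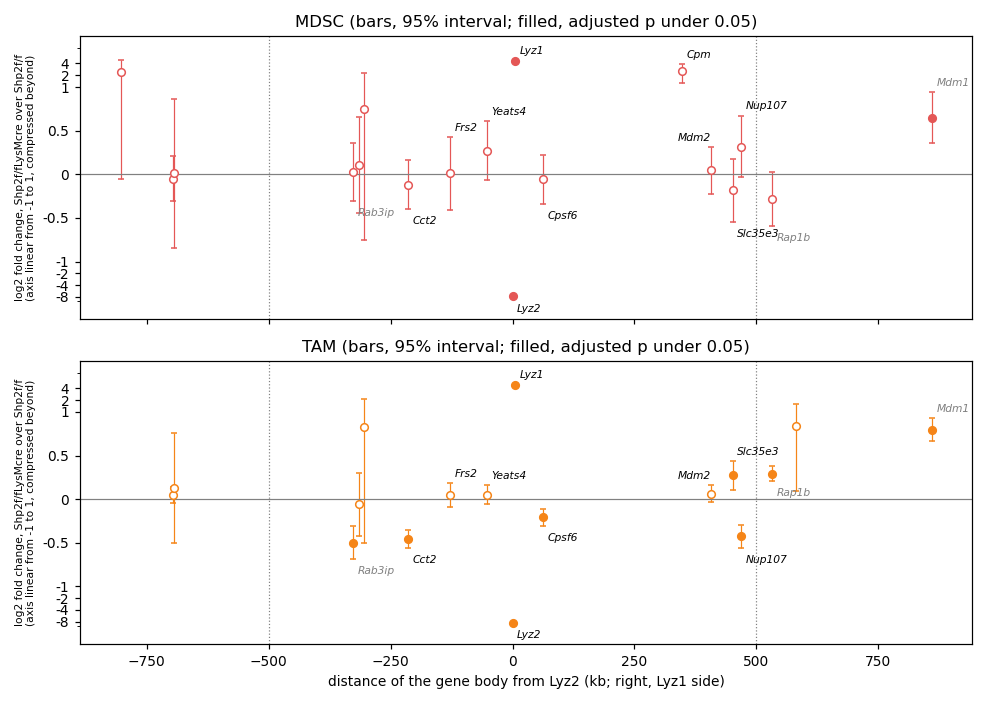
Log2 fold change of Shp2f/fLysMcre over Shp2f/f with its 95% interval against the distance of each tested gene from Lyz2 in kb, for MDSC (top) and TAM (bottom), filled where the adjusted p was under 0.05, with dotted lines at 500 kb. The vertical axis is compressed beyond -1 and 1. Only Lyz2 and Lyz1 are far from 0 and filled in both panels, with Mdm1 filled in both at the right.

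Levels of the 10 genes were also compared between MDSC and TAM of Shp2f/f mice, a comparison without Cre in either group. Cell type went together with organ (spleen or tumor), isolation (beads or flow cytometry) and Xist (1 count per MDSC library, 185 to 665 in TAM). These cannot be told apart in this comparison. Of the 10, 9 were called, where 78.8% of the 15659 tested genes were called. Lyz2 was lower in TAM than in MDSC (-1.39 ± 0.0404, adjusted p = 1.36e-09), as were Slc35e3 (-0.95 ± 0.087), Yeats4 (-0.92 ± 0.0672) and Lyz1 (-0.63 ± 0.215, adjusted p = 0.0217). Mdm2 was higher in TAM (1.02 ± 0.0522, adjusted p = 7.9e-08), and Frs2, Cpsf6, Cct2 and Nup107 were higher by 0.23 to 0.32. Cpm was not called (1.05 ± 0.763, adjusted p = 0.229). The Lyz1 call was lost without MDSC Shp2f/f replicate 2 (adjusted p = 0.116). For Mdm2, Yeats4, Slc35e3, Frs2 and Cpsf6 these differences between cell types were larger in size than their changes with genotype in either cell type. For Cct2 and Nup107 they were smaller than the change with genotype in TAM.

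Levels between genes were compared per length, as CPM per kb of annotated exon with all 10 libraries scaled together. In MDSC Shp2f/f the order was Lyz2 at 7002 ± 267.1 (SD, n = 2), Cct2 at 120.0 ± 5.09, Yeats4 at 51.9 ± 5.34, Mdm2 at 18.7 ± 0.456, Nup107 at 8.74 ± 0.33, Cpsf6 at 6.39 ± 0.0141, Slc35e3 at 3.95 ± 0.354, Lyz1 at 3.19 ± 0.278, Frs2 at 3.18 ± 0.419 and Cpm at 0.0486 ± 0.00708. Lyz1 and Frs2 did not differ beyond their spread there. In MDSC Shp2f/fLysMcre, Cct2 came first at 111.0 ± 2.57, followed by Lyz1 at 76.8 ± 4.44, Yeats4 at 62.9 ± 7.13 and Lyz2 at 34.4 ± 2.08. In TAM Shp2f/f, Lyz2 led at 2676 ± 95.6 (SD, n = 3), and Lyz1 at 2.06 ± 0.505 and Slc35e3 at 2.04 ± 0.0574 were level with each other. In TAM Shp2f/fLysMcre, Cct2 at 106.8 ± 6.06 and Lyz1 at 60.3 ± 4.36 led, and Lyz2 at 8.47 ± 1.25 was level with Nup107 at 7.81 ± 0.624. Lyz1 was thus among the lowest 3 of the 10 genes in both Shp2f/f groups and second in both Shp2f/fLysMcre groups.

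The genes whose pattern was most like that of the lysozymes were sought by Pearson's r of log2 CPM over the 10 libraries, as a description, among the 8849 genes averaging 10 CPM or more. The libraries fall into 4 groups, so r mostly follows the group means. For Lyz2 the top 3 were the Y-linked Eif2s3y (r = 0.996) and Kdm5d (r = 0.982) and the cytochrome gene Cyb5b on chromosome 8 (r = 0.980). Eif2s3y had group means of 87.1, 33.3, 71.0 and 24.6 CPM in MDSC Shp2f/f, MDSC Shp2f/fLysMcre, TAM Shp2f/f and TAM Shp2f/fLysMcre. For Lyz1 the top 3 were Mindy1 (r = 0.959), Ube2d-ps (r = 0.947) and Dcaf6 (r = 0.946), on chromosomes 3, 11 and 1. None of the 6 lies on chromosome 10.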

How the data were processed

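RNA was sequenced by the authors as stranded, poly(A)-selected, paired-end libraries of 42-nt reads, trimmed with cutadapt 2.5, aligned to GRCm38 with STAR 2.7.3a and counted per Ensembl gene with featureCounts (Subread 1.6.2). Strand and multimapping settings were not given in the sources used here. The authors deposited raw counts, whole numbers of reads per gene, which all tests used, and a normalized table that was not used here. Symbols and coordinates came from GENCODE (GRCm38), which matched 99.67% of identifiers.

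Counts were filtered with filterByExpr (minimum count 10), scaled by TMM and tested with edgeR 4.0.16 (quasi-likelihood, R 4.3.3) within each cell type, as an interaction over 10 libraries, and between cell types in Shp2f/f. P-values were Benjamini-Hochberg adjusted over all tested genes, with calls at 0.05. CPM are TMM-scaled, marker sums are CPM of the total count, and errors of log2 fold changes are standard errors. The tests were tried on simulated counts, whose spread between replicates was set lower than that fitted for MDSC and for the interaction. That trial thus does not bear on small changes in MDSC. Replicates are separate samples by label, and no sharing of mice between cell types was modeled, so p-values measure the spread between these samples, which may be technical.

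Named genes were the 10 members, Ptpn11, tested genes within 0.5 Mb, the largest called rise and fall of each partner list, the 3 genes most like Lyz2 and Lyz1, and sex-linked genes. Partners named beyond this were chosen after their values were seen, for their known roles. Members and lists were chosen with earlier results of these data known. Alternatives were DESeq2 1.42.0, its size factors, total counts, no filter, a replicate block, 1 fit of all libraries, Lyz1 and Lyz2 summed, other windows, and each replicate left out.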

Additional observations from a re-analysis of the deposited data

Results flagged for a closer look

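The genotype effect differed between TAM and MDSC in the interaction test for 5 of the 10 genes at the locus, where 24.9% of all tested genes were called. The difference, TAM minus MDSC on the log2 scale, was -0.63 ± 0.146 (SE) for Lyz2 (edgeR adjusted p = 0.0119), -0.31 ± 0.0924 for Cct2 (0.0359), -4.83 ± 1.11 for Cpm (0.0113), 0.48 ± 0.14 for Slc35e3 (0.0321) and -0.72 ± 0.136 for Nup107 (0.00436). Nup107 kept its call in all the alternatives tried, at -0.55 to -0.88. The call was lost in 10 alternatives for Cct2, in 9 for Slc35e3, and in 2 each, those without an MDSC Shp2f/f library, for Lyz2 and Cpm. With Lyz1 and Lyz2 counts summed, the Lyz2 difference turned to 0.68 (adjusted p = 0.00193). Cpm had 3 to 94 counts per library and passed the filter on low counts through libraries in which it was high, so its difference is given as a value and not as support. No group had more than 3 libraries, so single libraries were not tested as outliers.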

How the results depend on the processing

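With 2 libraries per MDSC genotype, the count of called genes swung with the fit, and small MDSC changes could not be resolved. Over the whole table the MDSC count of 633 became 1256 with DESeq2, 130 without a filter, 2674 with a replicate block, 2666 in 1 fit of all 10 libraries, and 1 to 4406 with a library left out (1 without either Shp2f/f library). The TAM count of 7257 became 4837 in 1 fit of all libraries. The count for the difference of the effects was 2446 to 7023 with a library left out. Among the 10 genes, the number called in MDSC was 2, and 1 to 4 with a library left out. The number called for the difference was 5, then 3 without a filter, 3 with the replicate block, and 1 to 6 with a library left out. Within 0.25 Mb 4 of 6 tested genes were called in TAM (66.7%), and within 1 Mb 9 of 17 (52.9%). Over all tested genes the share was 50.2%. Under total counts 30.9% of TAM calls were higher against 47.6% with TMM, and 28.3% against 49.1% for the difference, as the medians moved to -0.11 and -0.18. The cause of these shifts was not tested.

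Signs turned for the following values, of which the Lyz2 difference was called and the others were not. Under total counts the TAM values were -0.047 for Yeats4, -0.047 for Frs2 and -0.037 for Mdm2, and the differences were -0.095 for Frs2 and -0.124 for Mdm2. Frs2 in MDSC was -0.005 without a filter. With a library left out Frs2 ran from -0.195 to 0.169 in MDSC, from -0.005 to 0.113 in TAM and from -0.082 to 0.243 for the difference, while in MDSC Cpsf6 ran from -0.178 to 0.028 and Mdm2 from -0.034 to 0.092. With the pair summed the Lyz2 difference was 0.68. With the replicate block the Cpm cell type difference was -0.23. Cpm in TAM was tested under 6 alternatives, at -2.11 to -2.73, and called in 5 of them. Each of the 6 kept TAM Shp2f/f replicate 3, the library with 48 counts, so these calls are not given as support.

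Deviations of same-numbered libraries from their group means correlated at 0.175 in MDSC and -0.0821 to 0.0594 in TAM. With 2 libraries per MDSC group the deviations mirror each other, so the MDSC value cannot decide whether replicate numbers pair samples. Pairing of MDSC with TAM libraries was not tested. With the replicate block 3 genes of the locus were called in MDSC, Cpm in addition (2.44, adjusted p = 0.000165), and 7 in TAM, Cpm in addition (-2.11, adjusted p = 0.00819). That block gave 3 calls for the difference and 9 between cell types. The Cpm calls rest on libraries in which it was high and are not given as support.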
